A study of Homo sapiens with 8 samples.

Results

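The thioredoxin system is described here through 10 genes: the reductases TXNRD1, TXNRD2 and TXNRD3, the thioredoxins TXN and TXN2, the sulfiredoxin SRXN1, and the peroxiredoxins PRDX1, PRDX2, PRDX3 and PRDX5. They were chosen by symbol, and all 10 were found among the 13036 genes of the deposited table. For a contrast between compartments, 5 were taken as cytosolic (TXNRD1, TXN, SRXN1, PRDX1, PRDX2) and 3 as mitochondrial (TXNRD2, TXN2, PRDX3). PRDX5, whose protein is found in several compartments, and TXNRD3 were placed in neither set. All 10 passed the filter on low values.

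The study sequenced mRNA of the human glioblastoma line LN229-TAZ(4SA) in 8 libraries. Cells in glucose-deprived medium with AF at 1 µM for 1 h or 7 h (treated cells) were set against cells in regular culture without AF for 1 h or 7 h, with 2 libraries in each of the 4 groups. The title of the study concerns inhibition of TXNRD1 in glucose-starved glioblastoma cells. AF and glucose withdrawal were given at once in every treated library, so the part of each in a difference cannot be told apart. TAZ(4SA) was carried by the cells of all groups, and the labels do not say whether the line is 1 clone or whether the libraries came from separate cultures.

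Thioredoxins are small proteins that reduce disulfide bonds in other proteins and are returned to their reduced form by thioredoxin reductases, selenoproteins that draw electrons from NADPH. Peroxiredoxins reduce peroxides and pass the resulting disulfide to thioredoxin, and sulfiredoxin repairs peroxiredoxins whose active cysteine has been oxidised too far. Cytosol and mitochondria hold separate sets, with TXNRD1, TXN, PRDX1 and PRDX2 in the cytosol and TXNRD2, TXN2 and PRDX3 in mitochondria. The reductase, thioredoxin and sulfiredoxin genes of the cytosol are textbook targets of NRF2, a factor that binds antioxidant response elements.

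For 8 of the 10 genes, not TXN2 or PRDX1, RefSeq (GRCh38.p14) gave the 250 bases before 12 annotated starts. The core letters of an antioxidant response element, TGACNNNGC, were searched on both strands and stood in 2 of the 12 windows, both of TXNRD1, against 10.9% of 35116 windows of all genes and 11.7% of 15284 windows of genes in the table. These windows are shown because TXNRD1 is the enzyme named in the title and no other window of the 12 held the letters, which are in capitals. Both sequences are from the plus strand, 5′ to 3′, which is the strand of the gene. The first is the whole window before the first start, with the match 99 to 91 bases before the start. The second is the match before the second start with 10 bases on either side, where the letters lie 102 to 94 bases before the start and on the opposite strand (TGACAAAGC). All 250 bases of this second window lie in annotated exons, against 0 of the first window.
TXNRD1 first start, chr12:104215529-104215778: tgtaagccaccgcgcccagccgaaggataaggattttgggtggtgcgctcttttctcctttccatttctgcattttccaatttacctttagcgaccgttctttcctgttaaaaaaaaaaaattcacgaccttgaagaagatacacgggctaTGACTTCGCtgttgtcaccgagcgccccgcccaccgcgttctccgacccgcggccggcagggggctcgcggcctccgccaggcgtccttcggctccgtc
TXNRD1 second start, chr12:104286920-104286948: gtggatttctGCTTTGTCAttctgactct
Heat shock letters (GAANNTTC or TTCNNGAA) stood in 0 of the 12 windows, against 11.6% of all windows and 9.04% of those of genes in the table. The AP-1 site TGACTCA, whose first letters are those of the antioxidant core, stood in 0, against 4.2% of all windows and 2.88% of those of genes in the table. The ATF4 composite letters TGATGNAA stood in 0, against 3.14% of all windows and 1.67% of those of genes in the table. Such matches describe these windows and do not show binding.

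The libraries held 27731776 to 45811965 reads in the listed genes. Levels are given as CPM on the deposited scale. The deposited CPM of treated cells at 7 h implied library sizes of 0.838 and 0.846 times the reads counted, against 1.05 times in both libraries of regular culture at 7 h. When libraries were instead set to equal sums of reads over the table (total-count scaling), the median log2 fold change of all genes at 7 h was -0.32, against -0.01 as deposited, and 29.3% of the genes that passed were higher, against 49.7%. The higher share of the calls at 1 h was 68.4% under that scaling and 57.8% under quantile normalization, against 46.1% as deposited. Of 13 markers of glioblastoma cells 11 were in the table, and they summed to 16041 to 16542 CPM in treated cells at 7 h and 17735 to 18405 CPM in regular culture at 7 h, although GFAP, an astrocyte marker, averaged 1.14 and 0.495 CPM in those groups. Of 15 markers of other cells 6 were in the table, and they summed to 309 to 317 CPM in treated cells at 7 h and 137 CPM in both libraries of regular culture at 7 h. The part of these markers in the results below was not tested.

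After 7 h, all 5 cytosolic genes were higher in treated cells, led by SRXN1 and TXNRD1, while 2 of the 3 mitochondrial genes, TXNRD2 and PRDX3, were lower. Over the 10 genes, 7 rose and 3 fell at 7 h by limma's test at an adjusted p under 0.05. Changes were the rule at that time: 81.6% of the 13028 genes tested passed, 40.5% higher and 41.1% lower, so the count alone does not set these genes apart. The size of the rises did differ within the system: SRXN1, TXNRD1 and TXN rose at least 2-fold, as did 10.6% of all genes tested. CPM is relative to the library size implied by the deposited scale and is not a count per cell. A change in RNA per cell and a change in the number of cells that hold it therefore cannot be told apart. The rise of PRDX2 became a difference of -0.05 (limma adjusted p = 0.247), and that of TXN2 0.08 (limma adjusted p = 0.0551), under total-count scaling. The other 8 directions at 7 h passed under all alternatives run.

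**Figure D1:**
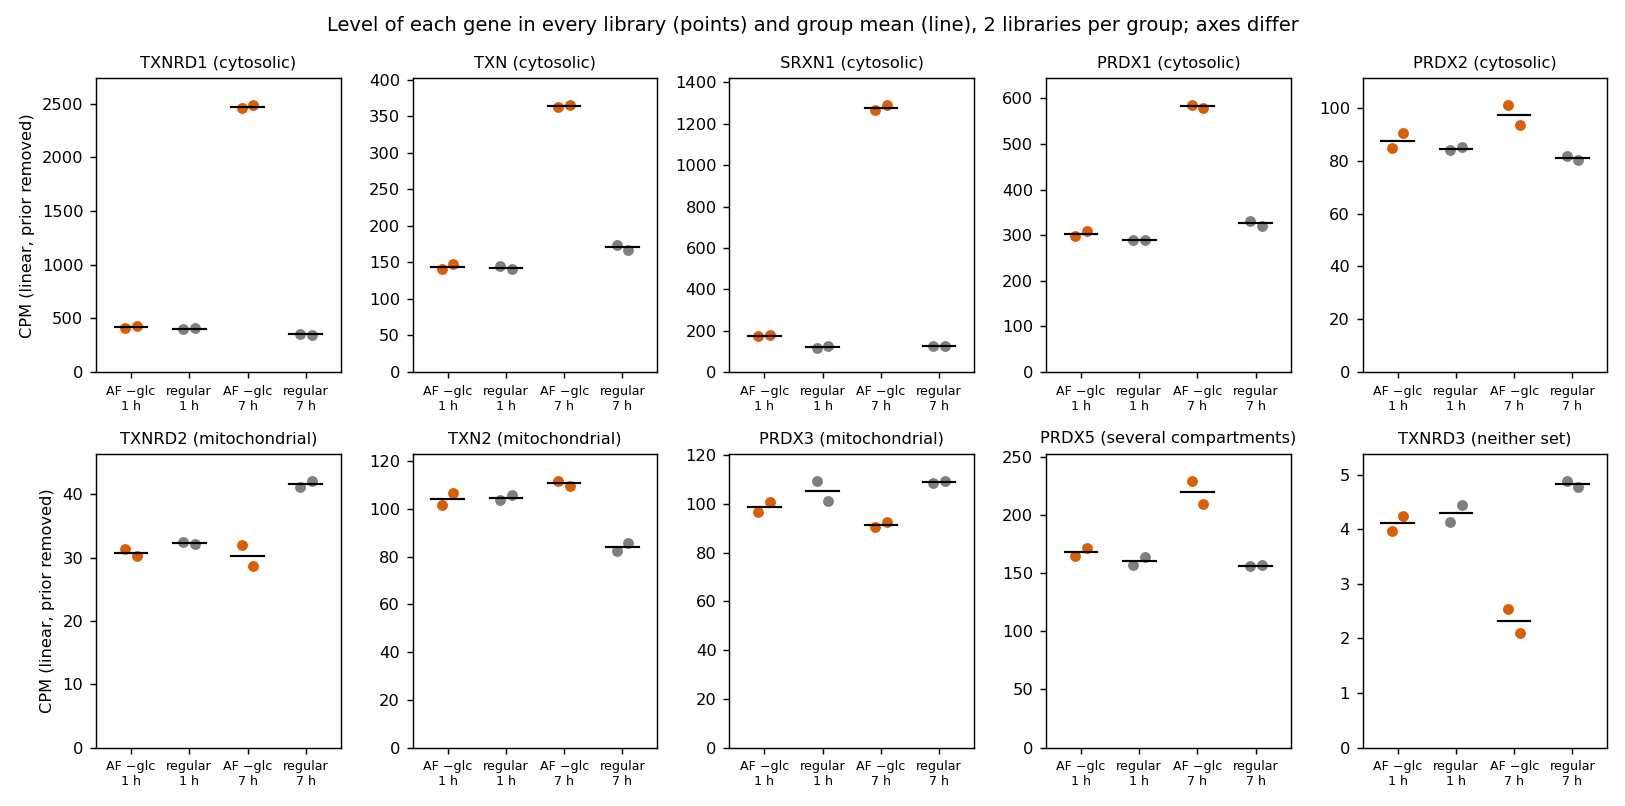
Levels in CPM (linear axis from 0, a separate scale in each panel) of the 10 genes in each library, with treated cells in orange (AF −glc) and regular culture in grey, 2 libraries a group, and the group mean as a line. TXNRD1 and SRXN1 sit at 2458 and 2488 CPM and at 1265 and 1290 CPM in treated cells at 7 h, while TXNRD2 sits at 31.9 and 28.7 CPM in treated cells and 41.2 and 42.1 CPM in regular culture at 7 h.

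TXNRD1 (chr12:104215779-104350307, plus strand) encodes the cytosolic reductase. Its level was 2458 and 2488 CPM in treated cells at 7 h, against 354 and 347 CPM in regular culture at 7 h. In the 1 h libraries it was 411 and 426 CPM in treated cells and 402 and 407 CPM in regular culture. The 7 h groups were thus far apart, and the 1 h groups lay next to each other without overlap. The log2 fold change was 2.82 ± 0.03 (SE) at 7 h, a 7.05-fold rise (limma adjusted p = 9.85e-24), and 0.05 ± 0.03 at 1 h (limma adjusted p = 0.212). The 1 h value was 0.13 under quantile normalization and 0.12 under total-count scaling, and passed in both. Within the span of TXNRD1 lies EID3, on the same strand and with 0 shared exon bases, which averaged 4.70 CPM in treated cells and 0.378 CPM in regular culture at 7 h.

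TXNRD2 (chr22:19875522-19941818, minus strand) encodes the mitochondrial reductase. Its level was 31.9 and 28.7 CPM in treated cells at 7 h, against 41.2 and 42.1 CPM in regular culture at 7 h. At 1 h it was 31.3 and 30.3 CPM in treated cells and 32.5 and 32.2 CPM in regular culture. On the deposited scale regular culture at 7 h therefore stood above the other 3 groups, which lay close together. The log2 fold change was -0.46 ± 0.06 at 7 h (limma adjusted p = 2.91e-07) and -0.07 ± 0.06 at 1 h (limma adjusted p = 0.334). At 7 h relative to 1 h, TXNRD2 rose in regular culture by 0.36 ± 0.06 (limma adjusted p = 1.46e-05) and differed by -0.02 ± 0.06 in treated cells (limma adjusted p = 0.702). Under total-count scaling TXNRD2 fell over time in treated cells, by 0.40 (limma adjusted p = 2.52e-06). The median of all genes in that comparison and scaling was also -0.40, and 8565 of 13028 genes passed as lower.

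TXNRD3 (chr3:126607050-126655124, minus strand) encodes a reductase with an added glutaredoxin domain, known mainly from testis. It rested on few reads, with 2.54 and 2.11 CPM in treated cells at 7 h (59 and 66 reads) and 4.88 and 4.77 CPM in regular culture at 7 h (234 and 216 reads). The 1 h values were 3.97 and 4.25 CPM in treated cells and 4.13 and 4.45 CPM in regular culture. The groups were separate at 7 h and overlapped at 1 h. TXNRD3 fell by 1.04 ± 0.14 on the log2 scale at 7 h (limma adjusted p = 1.02e-06), and its difference at 1 h was -0.06 ± 0.14 (limma adjusted p = 0.773). All 3 reductase genes changed at 7 h, and TXNRD1 was the only one of the 3 that rose.

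TXN (chr9:110243810-110256507, minus strand) encodes the cytosolic thioredoxin, the main substrate of TXNRD1. It was at 363 and 365 CPM in treated cells at 7 h, against 174 and 167 CPM in regular culture at 7 h. At 1 h it was at 141 and 148 CPM in treated cells and 145 and 141 CPM in regular culture, and these groups overlapped. The rise at 7 h was 1.09 ± 0.03 on the log2 scale, or 2.13-fold (limma adjusted p = 3.13e-16). The 1 h difference was 0.01 ± 0.03 (limma adjusted p = 0.793), and it passed at 0.11 under quantile normalization.

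TXN2 (chr22:36467046-36481640, minus strand) encodes the mitochondrial thioredoxin. It measured 112 and 110 CPM in treated cells at 7 h, against 82.3 and 85.6 CPM in regular culture at 7 h. At 1 h it measured 102 and 107 CPM in treated cells and 103 and 106 CPM in regular culture. On the deposited scale the group that stood apart was again regular culture at 7 h, here below the others. TXN2 rose by 0.40 ± 0.04 at 7 h (limma adjusted p = 1.04e-08), with a difference of -0.01 ± 0.04 at 1 h (limma adjusted p = 0.903). In regular culture it fell by 0.32 ± 0.04 at 7 h relative to 1 h (limma adjusted p = 7.63e-07). In treated cells the same difference was 0.09 ± 0.04 (limma adjusted p = 0.0422), a call that was lost without treated 1 h library A or without any 1 of the 4 libraries of 7 h, and turned to -0.04 under quantile normalization and -0.28 under total-count scaling.

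SRXN1 (chr20:646615-653200, minus strand) encodes sulfiredoxin and showed the largest rise of the 10 genes at both times. Its level was 1265 and 1290 CPM in treated cells at 7 h, against 124 and 124 CPM in regular culture at 7 h. At 1 h it was already 173 and 180 CPM in treated cells, against 116 and 126 CPM in regular culture. The groups were separate at both times. The rise was 3.37 ± 0.04 on the log2 scale at 7 h, or 10.3-fold (limma adjusted p = 1.84e-23), and 0.54 ± 0.04 at 1 h, or 1.45-fold (limma adjusted p = 4.15e-10). SRXN1 was the 1 gene of the 10 that passed at 1 h, when 38.4% of all genes tested passed, 17.7% higher and 20.7% lower; its rise was under 2-fold, a size that 1.1% of all genes tested reached. That count depended on the scaling: 6 of the 10 genes were higher at 1 h under quantile normalization and 5 under total-count scaling, with all added values between 0.11 and 0.17. Over all 13028 genes 3087 and 3937 were higher at 1 h under these scalings, against 2303 as deposited. In regular culture the difference of SRXN1 at 7 h relative to 1 h was 0.03 ± 0.04 (limma adjusted p = 0.478).

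PRDX1 (chr1:45511051-45522890, minus strand) and PRDX2 (chr19:12796823-12801800, minus strand) encode the abundant cytosolic peroxiredoxins that thioredoxin recycles. PRDX1 was at 585 and 580 CPM in treated cells at 7 h, against 331 and 321 CPM in regular culture at 7 h. At 1 h PRDX1 was at 297 and 310 CPM in treated cells and 289 and 290 CPM in regular culture. Its groups were separate at both times, by a wide margin at 7 h. PRDX1 rose by 0.84 ± 0.03 at 7 h, or 1.79-fold (limma adjusted p = 3.67e-15), with 0.07 ± 0.03 at 1 h (limma adjusted p = 0.0953). PRDX2 was at 101 and 93.4 CPM in treated cells at 7 h, against 81.6 and 80.2 CPM in regular culture at 7 h, and its 1 h levels were 84.8 and 90.5 CPM in treated cells and 83.9 and 85.2 CPM in regular culture. The PRDX2 groups overlapped at 1 h and were separate at 7 h. PRDX2 rose by 0.26 ± 0.04 at 7 h (limma adjusted p = 1.78e-05), the smallest rise among the cytosolic genes and the one that flipped to -0.05 under total-count scaling.

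PRDX3 (chr10:119167720-119178812, minus strand), the mitochondrial peroxiredoxin, moved the other way. It was at 90.3 and 92.6 CPM in treated cells at 7 h, against 108 and 109 CPM in regular culture at 7 h. At 1 h it was at 96.8 and 101 CPM in treated cells, against 109 and 101 CPM in regular culture, where library B lay close to the treated ones. PRDX3 fell by 0.25 ± 0.04 at 7 h (limma adjusted p = 1.32e-05). At 1 h the difference was -0.09 ± 0.04 (limma adjusted p = 0.0836), and it passed at -0.15 without regular-culture library B (limma adjusted p = 0.0172).

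PRDX5 (chr11:64318121-64321811, plus strand) encodes a peroxiredoxin of mitochondria, peroxisomes and cytosol. Its level was 229 and 209 CPM in treated cells at 7 h, against 156 and 157 CPM in regular culture at 7 h. At 1 h it was 165 and 172 CPM in treated cells and 157 and 164 CPM in regular culture. Both 7 h treated libraries lay above all other libraries. PRDX5 rose by 0.49 ± 0.04 at 7 h, or 1.40-fold (limma adjusted p = 1.24e-09), and differed by 0.07 ± 0.04 at 1 h (limma adjusted p = 0.209). Its span overlaps that of TRMT112 on the opposite strand with 0 shared exon bases, and TRMT112 rose by 0.89 at 7 h (limma adjusted p = 7.27e-15). RefSeq lists 19 pseudogenes named after the members, 7 of them for TXN and 4 each for PRDX2 and PRDX3, none of which has a row in the table, so how reads from such copies were counted is uncertain.

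**Figure D2:**
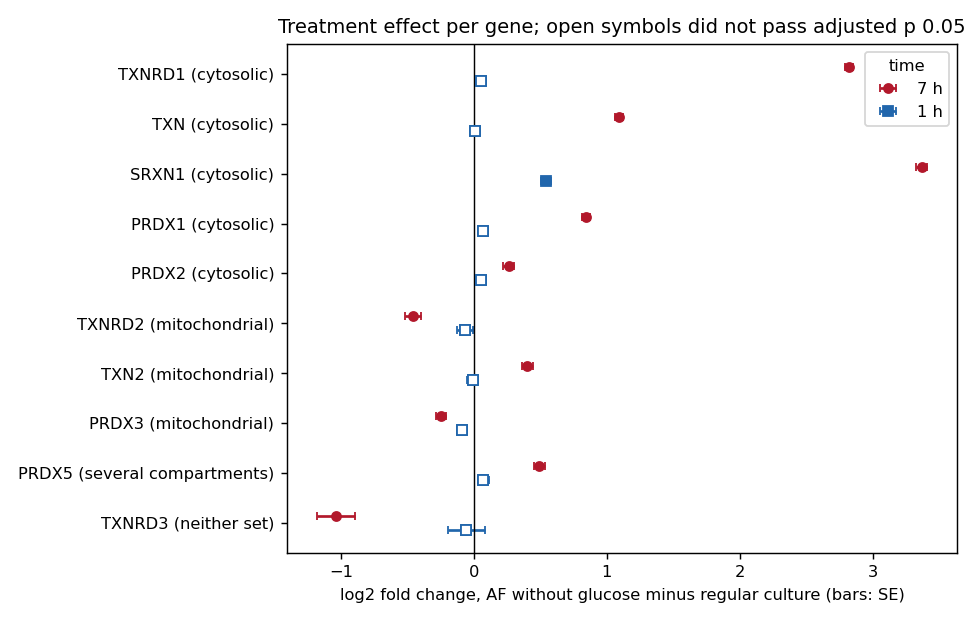
Log2 fold changes (treated cells minus regular culture, bars are SE) of the 10 genes at 7 h (circles) and 1 h (squares); open symbols did not pass limma's test. At 7 h all 10 genes passed and spread between -1.04 for TXNRD3 and 3.37 for SRXN1, and at 1 h SRXN1 alone passed, at 0.54. On another scaling PRDX2 at 7 h was -0.05 and 5 or 6 genes passed at 1 h. Over all genes tested 81.6% passed at 7 h and 38.4% at 1 h as deposited.

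Between compartments, the cytosolic genes had a median log2 fold change of 1.09 at 7 h, with a range of 0.26 to 3.37, and 5 of 5 rose (4 of 5 under total-count scaling). The mitochondrial genes had a median of -0.25 at 7 h, with a range of -0.46 to 0.40: TXN2 rose, and TXNRD2 and PRDX3 fell. The median of all genes tested was -0.01, with 40.5% of them higher and 41.1% lower. Under total-count scaling 3144 of 13028 genes were higher and 7581 lower. At 1 h the cytosolic median was 0.05 and the mitochondrial median -0.07, against 0.01 for all genes tested. With 5 and 3 genes chosen with earlier results known, these medians are a description.

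The ratio of a cytosolic gene to its mitochondrial relative within a library is not moved by a scaling that multiplies all genes of a library by the same factor, such as total-count scaling, but quantile normalization can move it. CPM is not corrected for gene length, so the change of such a ratio can be read, and its absolute value cannot. The log2 ratio of TXNRD1 to TXNRD2 was 6.26 and 6.44 in treated cells at 7 h, against 3.10 and 3.04 in regular culture at 7 h, a 9.70-fold shift towards the cytosolic reductase, or a log2 difference of 3.28, against 2.64 after quantile normalization. At 1 h the ratio was 3.71 and 3.81 in treated cells, against 3.62 and 3.66 in regular culture. For TXN over TXN2 the log2 ratio was 1.70 and 1.74 in treated cells at 7 h, against 1.08 and 0.97 in regular culture at 7 h, a 1.62-fold shift. At 1 h this ratio overlapped between the groups, at 0.47 and 0.47 in treated cells and 0.48 and 0.41 in regular culture.

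For the peroxiredoxins the shift had the same direction. The log2 ratio of PRDX1 to PRDX3 was 2.69 and 2.65 in treated cells at 7 h and 1.61 and 1.55 in regular culture at 7 h, a 2.13-fold shift. PRDX2 over PRDX3 was 0.16 and 0.01 in treated cells at 7 h, against -0.41 and -0.45 in regular culture at 7 h, a 1.43-fold shift. At 1 h both ratios were already separate by a little, with differences of 0.16 for PRDX1 over PRDX3 and 0.14 for PRDX2 over PRDX3. All 4 ratios were thus higher in both treated libraries than in both libraries of regular culture at 7 h. PRDX3 is in both peroxiredoxin ratios, and the share of other gene pairs that separate in this way was not computed. In regular culture alone, the libraries of 7 h and 1 h were also separate in all 4 ratios, with changes between -0.57 and 0.57. An exact two-sided permutation test of 2 against 2 libraries cannot go below p = 0.333, the value each of the 4 ratios reached at 7 h. Leaving out any 1 library moved the 7 h differences to between 3.19 and 3.36 for the reductases, 0.64 and 0.75 for the thioredoxins, 1.06 and 1.12 for PRDX1 over PRDX3, and 0.44 and 0.59 for PRDX2 over PRDX3.

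**Figure D3:**
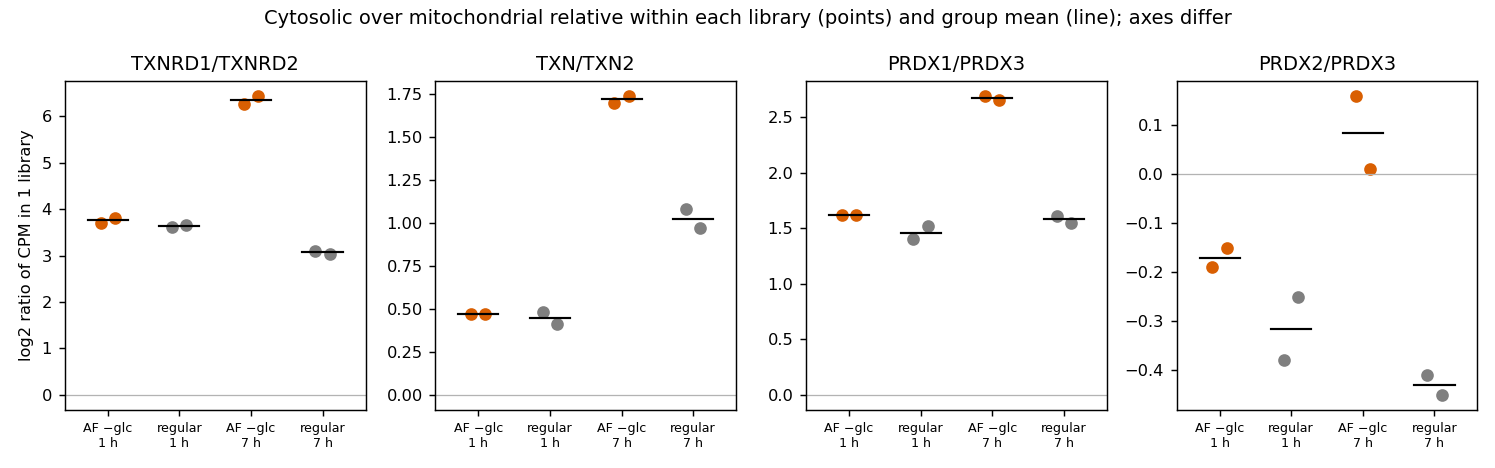
Log2 ratio of CPM between a cytosolic gene and its mitochondrial relative in each library (points) with the group mean (line), for 4 pairs and 4 groups of 2 libraries; each panel has its own axis. At 7 h both treated libraries (orange) lie above both libraries of regular culture (grey) in all 4 panels, with mean differences of 3.28, 0.69, 1.09 and 0.51. The share of other gene pairs that separate in this way was not computed.

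Time in regular culture moved several of these genes without treatment. At 7 h relative to 1 h, 3 of the 10 genes rose and 2 fell, while 61.5% of all genes tested passed, 30.7% higher and 30.8% lower. TXNRD2 was at 41.2 and 42.1 CPM at 7 h, against 32.5 and 32.2 CPM at 1 h. TXN rose by 0.26 ± 0.03 (limma adjusted p = 3.2e-06) and PRDX1 by 0.17 ± 0.03 (limma adjusted p = 0.000102). TXNRD1 fell by 0.21 ± 0.03 (limma adjusted p = 6.79e-06), and TXN2 fell by 0.32. The log2 ratio of TXNRD1 to TXNRD2 thus changed by -0.57 and that of TXN to TXN2 by 0.57 in regular culture, opposite signs in the same cells. Values of the remaining 5 genes lay between -0.06 for PRDX2 and 0.17 for TXNRD3 and did not pass.

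In treated cells at 7 h relative to 1 h, 7 of the 10 genes rose and 2 fell, while 77.6% of all genes tested passed, 36.9% higher and 40.7% lower. SRXN1, at 2.86 ± 0.04, TXNRD1, at 2.56 ± 0.03, and TXN, at 1.34 ± 0.03, rose at least 2-fold, as did 7.14% of all genes tested. PRDX1 rose by 0.94 ± 0.03 and PRDX5 by 0.38 ± 0.04. The call of PRDX5 was lost under total-count scaling, where the value was 0.01. TXNRD3 fell by 0.81 ± 0.14 and PRDX3 by 0.11 ± 0.04 (limma adjusted p = 0.0194), the second of which was not called without treated 1 h library B or treated 7 h library A. PRDX2 rose by 0.15 ± 0.04 (limma adjusted p = 0.00454). That rise was not called without treated 1 h library A or treated 7 h library A, nor under quantile normalization (0.05). Under total-count scaling PRDX2 turned to -0.22 and passed as lower. TXNRD2 differed by -0.02 and did not pass as deposited, and passed at -0.40 under total-count scaling, where all 3 mitochondrial genes fell. The median of all genes under that scaling was also -0.40, and 8565 of 13028 genes passed as lower.

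On the deposited scale the treatment effect itself differed between 7 h and 1 h for all 10 genes, by the test of that difference. It moved towards higher values for 7 of them and lower values for 3. Of all genes tested, 73.7% passed this test, 36.7% higher and 37.0% lower. TXNRD1, SRXN1 and TXN gained at least 2-fold, as did 11.2% of all genes tested. The difference for PRDX3, -0.16 ± 0.06 (limma adjusted p = 0.0186), was not called without treated 1 h library B, regular 1 h library B, treated 7 h library A or regular 7 h library B (values of -0.10 to -0.15). Under total-count scaling 4 members were higher, TXNRD1, SRXN1, TXN and PRDX1, and 4 were lower, PRDX2 (-0.17) among them. The share of higher calls over all genes was then 24.9%, against 49.8% as deposited.

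To set levels of different genes side by side, CPM was divided by the length of the annotated exons, in kilobases. At 1 h in regular culture the order per kilobase was PRDX1 at 231, PRDX5 at 180, TXN at 164, PRDX2 at 85.7, TXNRD1 at 80.2, PRDX3 at 66.2, TXN2 at 54.1, SRXN1 at 44.9, TXNRD2 at 5.91 and TXNRD3 at 1.16 CPM per kb. No neighbours in that order overlapped between libraries. At 7 h in treated cells TXNRD1 led at 490 CPM per kb, followed by SRXN1 at 474 and PRDX1 at 465, with TXN at 419 CPM per kb. SRXN1 at 469 and 478 and PRDX1 at 467 and 463 CPM per kb were barely apart, and PRDX3 and TXN2, at 57.5 and 57.2 CPM per kb, overlapped. In regular culture at 7 h PRDX1 led at 260 CPM per kb, TXN was at 196, TXNRD1 at 69.5 and SRXN1 at 45.9 CPM per kb. There TXNRD1 and PRDX3, at 69.5 and 68.4 CPM per kb, touched between libraries.

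Per kilobase TXNRD1 thus had rank 1 of the 10 genes in treated cells at 7 h and rank 5 in the other 3 groups, and SRXN1 had rank 2 in treated cells at 7 h and rank 7 in regular culture at 7 h. TXNRD2 had rank 9 and TXNRD3 rank 10 in all 4 groups. The rank of TXNRD1 in regular culture rests on the length used: with the longest principal transcript, 3930 bases in place of 5046 bases of joined exons, it stood at 103 CPM per kb at 1 h, above PRDX2. With the same choice, TXNRD2 had 2115 bases in place of 5472 and stood at 14.3 CPM per kb in treated cells at 7 h, still at rank 9.

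**Figure D4:**
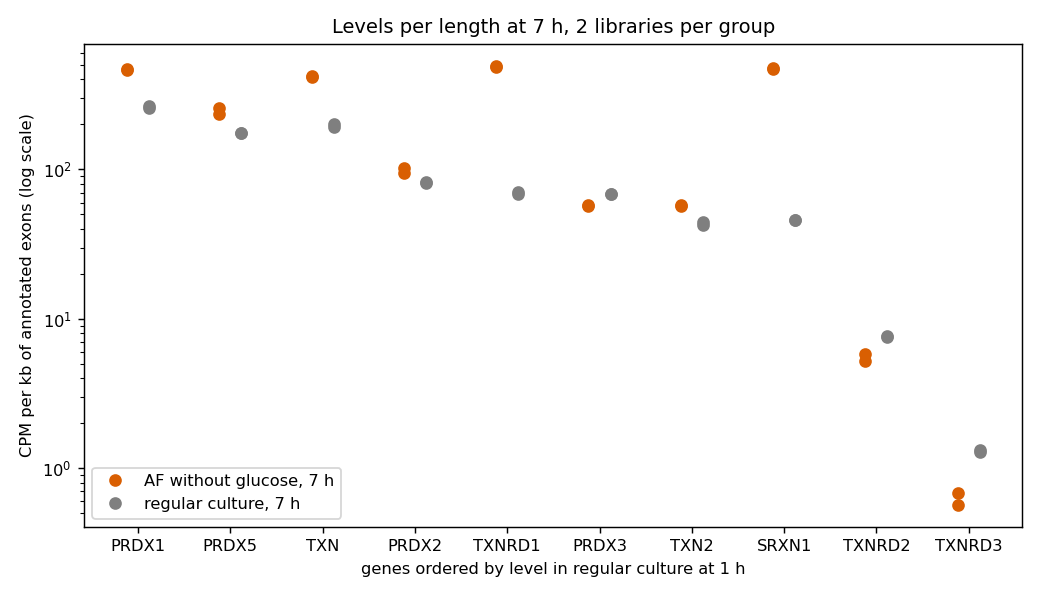
Level per kilobase of annotated exons (CPM per kb, log axis) of each gene in the 2 libraries of treated cells (orange) and of regular culture (grey) at 7 h, with genes ordered by their level in regular culture at 1 h. TXNRD1, SRXN1, PRDX1 and TXN gather between 419 and 490 CPM per kb in treated cells, while TXNRD2 and TXNRD3 stay below 10 in both groups.

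The remaining peroxiredoxins of the table, which are not among the 10 genes, also rose at 7 h. PRDX6, an enzyme with a single active cysteine, was at 398 and 394 CPM in treated cells and 224 and 227 CPM in regular culture at 7 h, a rise of 0.81 ± 0.03 (limma adjusted p = 1.57e-14). PRDX4, the peroxiredoxin of the endoplasmic reticulum, was at 107 and 109 CPM in treated cells and 79.4 and 83.1 CPM in regular culture at 7 h, a rise of 0.41 ± 0.04 (limma adjusted p = 6.06e-09). At 1 h PRDX6 and PRDX4 each differed by 0.03 and did not pass; both passed under total-count scaling, and PRDX6 also under quantile normalization. PRDX3 was therefore the 1 peroxiredoxin of 6 that fell at 7 h; under total-count scaling PRDX2 was also below 0, at -0.05, and did not pass.

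Among 21 other genes of the thioredoxin fold, PRDX4 and PRDX6 included, 12 rose and 6 fell at 7 h, with a median of 0.29. That is 18 of 21 genes, where 81.6% of all genes tested passed, 40.5% higher and 41.1% lower, with a median of -0.01. The largest rises were those of GLRX, cytosolic glutaredoxin, at 1.65 ± 0.10, TXNL1, a thioredoxin-like protein bound to the proteasome, at 1.38 ± 0.04, and GLRX2, a mitochondrial glutaredoxin, at 1.04 ± 0.06. The largest falls were those of TXNDC15 at -0.69 ± 0.04, TMX1, a membrane oxidoreductase of the endoplasmic reticulum, at -0.38 ± 0.04, and GLRX5, which serves iron-sulfur cluster assembly in mitochondria, at -0.35 ± 0.06. All 6 passed limma's test. At 1 h, when 38.4% of all genes passed, 2 of the 21 rose and 3 fell, against 4 and 0 under quantile normalization and 6 and 0 under total-count scaling. Over all 13028 genes 3087 were higher and 2250 lower at 1 h under quantile normalization, and 3937 and 1823 under total-count scaling. The 3 falls became 1 without treated 1 h library A and 0 without treated 1 h library B or regular 1 h library A. Under total-count scaling 7 rose and 9 fell at 7 h, with 3144 higher and 7581 lower over all 13028 genes.

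Of 14 genes whose proteins are reduced by thioredoxin, bind it or act beside the peroxiredoxins, 4 rose and 8 fell at 7 h, with a median of -0.25, where 81.6% of all genes tested passed. SESN2, a stress-induced sestrin, rose by 4.95 ± 0.05, SESN3 by 2.12 ± 0.06 and MSRB2, a mitochondrial methionine sulfoxide reductase, by 0.51 ± 0.14, a call that was lost at 0.20 under total-count scaling. TXNIP, which binds and inhibits thioredoxin, was at 5.29 and 4.98 CPM in treated cells at 7 h, against 56.7 and 57.1 CPM in regular culture at 7 h, and fell by 3.46 ± 0.07. SESN1 fell by 1.69 ± 0.16, and MAP3K5, a kinase held inactive by reduced thioredoxin, by 0.77 ± 0.06. The list thus holds members that moved in opposite directions, TXNIP and SESN2 above all. At 1 h 2 of the 14 rose and 5 fell, where 17.7% of all genes were higher and 20.7% lower, and 4 rose under quantile normalization and 5 under total-count scaling. Over all 13028 genes 3087 and 3937 were higher at 1 h under these scalings, against 2303 as deposited.

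Other genes of redox control were counted by compartment in the same way. Of 12 mitochondrial genes 11 were in the table (ME3 was not analysed here), and 6 rose and 4 fell at 7 h, with a median of 0.18, beside 40.5% higher and 41.1% lower over all genes. Under total-count scaling the counts were 4 higher and 6 lower with a median of -0.14. Over all 13028 genes under that scaling 3144 were higher and 7581 lower, with a median of -0.32. MTHFD2, a folate enzyme of mitochondria, rose by 2.59 ± 0.03, GLRX2 by 1.04 and SOD2, the mitochondrial superoxide dismutase, by 0.59 ± 0.07. NNT, which makes mitochondrial NADPH, fell by 0.52 ± 0.04, CHCHD4, which oxidises imported proteins, by 0.50 ± 0.08, and GLRX5 by 0.35. SOD2 fell at 1 h, by 0.97 ± 0.07, and rose at 7 h: it was at 12.9 and 13.2 CPM in treated cells and 26.6 and 24.5 CPM in regular culture at 1 h, and at 19.2 and 20.7 CPM in treated cells and 13.9 and 12.7 CPM in regular culture at 7 h.

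A further list held 17 redox genes outside the 10 members that were taken as mainly cytosolic, some of which are also in the lists above. It is not purely cytosolic. It holds SLC7A11 of the plasma membrane, HMOX1, anchored in the membrane of the endoplasmic reticulum, and CAT, a peroxisomal enzyme. Of the 17, 15 rose at 7 h and the other 2 did not pass, with a median of 1.59, and 12 rose at least 2-fold. Over all genes tested 40.5% were higher at 7 h, and 10.6% rose at least 2-fold. The 3 largest rises were those of HMOX1, heme oxygenase, at 11.0 ± 0.05, SLC7A11, the cystine transporter, at 3.31 ± 0.05, and GCLM, a subunit of the enzyme that starts glutathione synthesis, at 2.88 ± 0.05. At 1 h 10 of the 17 rose, against 17.7% of all genes, and 12 did under quantile normalization and 15 under total-count scaling. Over all 13028 genes 3087 and 3937 were higher at 1 h under these scalings, against 2303 as deposited. In regular culture 15 fell at 7 h relative to 1 h, against 30.8% of all genes. Under quantile normalization 1 of the 17 fell at 7 h, and under total-count scaling 3 did. Over all 13028 genes 5471 and 7581 were lower at 7 h under these scalings. The difference between the cytosolic and the mitochondrial list was not tested.

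**Figure D5:**
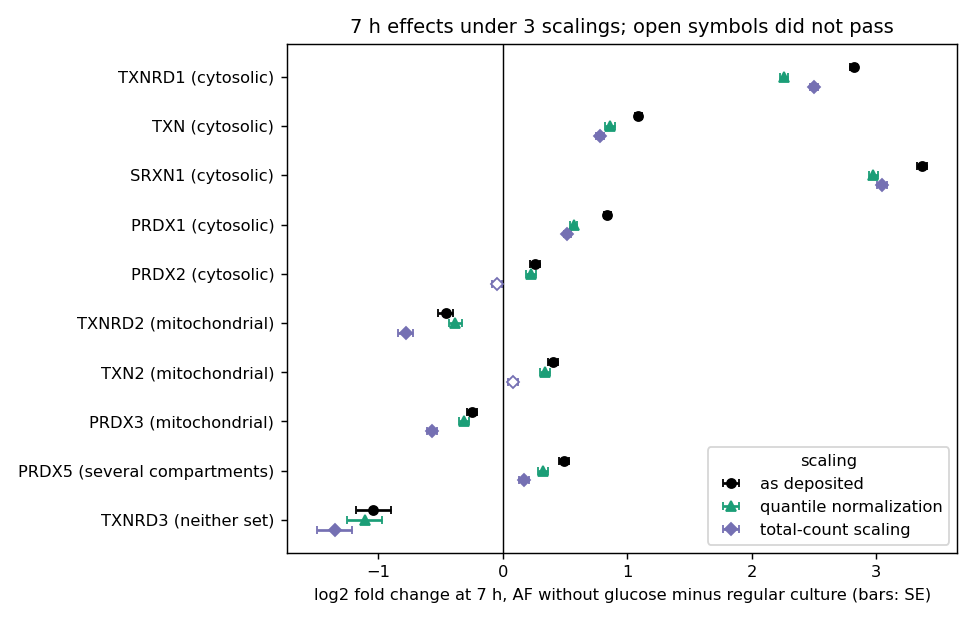
Log2 fold changes at 7 h (treated cells minus regular culture, bars are SE) of the 10 genes on the deposited scale (circles), after quantile normalization (triangles) and after total-count scaling (diamonds); open symbols did not pass limma's test. TXNRD1, TXN, SRXN1, PRDX1 and PRDX5 stay above 0 and TXNRD2, PRDX3 and TXNRD3 below 0 on all 3 scalings, while PRDX2 reads 0.26 as deposited and -0.05 on the third scaling and TXN2 reads 0.40 and 0.08.

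The genes whose profile over the 8 libraries lay closest to that of TXNRD1, by the root mean square difference of centred log2 values among 11041 genes, were SNAP23 (0.096), GSTO2 (0.099), CLU (0.105), NXT2 (0.109) and ABHD3 (0.110). Among the other 9 members SRXN1 was the closest to TXNRD1, at 0.293. Closest to TXNRD2 were STS (0.039), ECE1 (0.043), DPYSL3 (0.044), EPB41L5 (0.044) and ARHGEF1 (0.046), and among the members PRDX3, at 0.138. The distance between TXNRD1 and TXNRD2 was 1.27. The neighbours were picked as the closest genes, so their likeness in fold change is part of the choice.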

How the data were processed

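RNA was sequenced in 8 libraries of LN229-TAZ(4SA) cells prepared with SMART-Seq mRNA HT and Nextera XT kits, per the labels' protocols. Alignment used HISAT2 with the GRCh38 build and edgeR was applied, per the submitters' processing notes; their versions, the read counter, the gene annotation and any filter by the submitters are not given in sources used here. The authors deposited log2 CPM with a small prior (0.0522 CPM, or 2 reads in a library of mean size, read from the steps of low values). With that prior removed, 100% of values came out whole, to within 0.1 read. Depth was 27731776 to 45811965 reads, and 3 reads, the limit a count of 0 allows, equal 0.0626 to 0.129 CPM. Column names give a group without a replicate number, so the pair in a group is called A and B in no order; 0 columns were unmapped. The kits do not mark strand, so reads of a member and of a gene overlapping it on the other strand cannot be told apart, and not every such overlap is reported here.

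Testing was limited to the 13028 genes that reached 1 CPM in 2 or more libraries, which left out 8. A limma 3.58.1 model (R 4.3.3) of the log2 values had a mean for each group, used all 8 libraries and let the variance follow the level (4 residual and 14.5 prior degrees of freedom, median residual SD 0.0587). The threshold for a pass was 0.05 on Benjamini-Hochberg adjusted p-values over all genes tested. Positive values mean higher in treated cells or, for time, higher at 7 h. Libraries of a group differed by more than counting noise (chi-square per degree of freedom of 2.79 to 3.62); since the labels name no separate cultures, p-values measure only how far these libraries vary, perhaps for technical reasons. The procedure was tested on simulated data with few changed genes and known library sizes. That test cannot judge the choice of scaling.

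The 10 members and the gene lists were chosen with earlier results of these data known. Of each list, the text names the 3 largest rises and the 3 largest falls at 7 h among genes that passed, PRDX4 and PRDX6 in any case, and the 5 genes nearest TXNRD1 and TXNRD2 in profile among those reaching 5 CPM. Exon lengths are those of the GENCODE basic annotation. Alternatives were quantile normalization, scaling libraries to equal sums of reads over the table (total-count scaling), no filter, a pseudocount of 1 CPM, voom weights on the recovered reads, and leaving out each library.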

Additional observations from a re-analysis of the deposited data

Results flagged for a closer look

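For 12 genes the treatment effect at 7 h differed from that at 1 h by limma's test of the difference, which 73.7% of all genes tested passed; values are log2, 7 h effect minus 1 h effect, ± SE. The reductase TXNRD1 differed by 2.77 ± 0.04 (adjusted p = 1.14e-20). TXNRD2 differed by -0.39 ± 0.08 (adjusted p = 0.000207). TXNRD3 differed by -0.98 ± 0.20 (adjusted p = 0.000169). The thioredoxin TXN differed by 1.08 ± 0.05 (adjusted p = 1.96e-13). TXN2 differed by 0.41 ± 0.05 (adjusted p = 1.49e-06), a call lost under total-count scaling, at 0.02. SRXN1 differed by 2.83 ± 0.05 (adjusted p = 1.54e-19). PRDX1 differed by 0.77 ± 0.04 (adjusted p = 6.81e-12). PRDX2 differed by 0.21 ± 0.06 (adjusted p = 0.0047). It was not called under quantile normalization (0.10) and passed as lower under total-count scaling (-0.17). PRDX3 differed by -0.16 ± 0.06 (adjusted p = 0.0186), a call lost in 4 of the fits that left out 1 library. PRDX5 differed by 0.42 ± 0.06 (adjusted p = 2.12e-06), a call lost under total-count scaling, at 0.03. Outside the 10 genes, PRDX4 differed by 0.38 ± 0.05 (adjusted p = 3.06e-06; lost under total-count scaling, adjusted p = 0.967) and PRDX6 by 0.78 ± 0.05 (adjusted p = 1.32e-11).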

How the results depend on the processing

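No filter, a pseudocount of 1 CPM and voom weights (a choice made after seeing the data) changed no direction or call of the 10 genes. With voom weights 5 of the thioredoxin partners rose at 7 h (4 as deposited), 11 of the cytosolic list rose at 1 h (10) and 14 of it fell in regular culture over time (15). The planned edgeR test was not run, because the deposited values are log2. No paired analysis was possible because the columns carry no replicate number. Genes with few reads, such as TXNRD3, are limited by depth.

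Under total-count scaling the median log2 value of all genes was -0.32 at 7 h, -0.37 for the difference between effects, -0.40 for treated cells over time and 0.08 at 1 h. Under it, genes higher were 3144 at 7 h (5280 as deposited), 3937 at 1 h (2303), 2515 for the difference (4783) with 7583 lower (4823), and 2248 for treated cells over time (4809) with 8565 lower (5305). Members higher were 5 at 1 h (6 under quantile normalization, 1 as deposited), 4 for the difference with 4 lower, and 4 for treated cells over time with 5 lower. The cytosolic median at 7 h was 0.86 under quantile normalization and 0.78 under the total, and the mitochondrial one -0.31 and -0.57; at 1 h they were 0.13 and 0.12, and -0.02 and -0.0. In the thioredoxin-fold list 7 genes rose at 7 h under the total, and at 1 h 4 (quantile) and 6 (total) rose and 0 fell under both. At 1 h 4 and 5 of the thioredoxin partners rose, 5 of the mitochondrial list rose under the total and 1 fell under both, and at 7 h 1 and 3 of the cytosolic list fell. The cause was not tested.

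Directions turned as follows. PRDX2 was -0.05 at 7 h, -0.17 for the difference and -0.22 in treated cells over time under the total. It passed as lower for the difference and in treated cells over time. TXN2 was 0.07 (quantile) and 0.06 (total) at 1 h, and -0.04 and -0.28 in treated cells over time. TXNRD3 was 0.01 at 1 h under the total. Under quantile normalization PRDX5 was 0.01 in regular culture over time and TXNRD2 0.06 in treated cells over time. The call of the TXN2 and PRDX5 differences was lost under the total (0.02 and 0.03), and that of PRDX2 under quantile normalization (0.10). The PRDX4 difference was lost under the total (-0.0, limma adjusted p = 0.967). In treated cells over time PRDX2 was not called under quantile normalization (0.05), and TXNRD2 passed under the total (-0.40). Quantile normalization, tried on the ratios after seeing the data, gave 7 h differences of 2.64 for TXNRD1 over TXNRD2, 0.52 for TXN over TXN2 and 0.88 for PRDX1 over PRDX3, and 0.18 at 1 h for TXNRD1 over TXNRD2.

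Leaving out 1 library gave 1 h values of -0.02 to 0.05 for TXN and -0.04 to 0.03 for TXN2, regular culture over time of -0.03 to 0.09 for SRXN1 and -0.01 to 0.10 for PRDX3, and treated cells over time of -0.10 to 0.05 for TXNRD2. Members lower ranged over 0 to 1 at 1 h and 1 to 2 in treated cells over time, and the cytosolic median at 1 h over 0.02 to 0.10. At 1 h the thioredoxin-fold list had 1 to 2 higher and 0 to 3 lower, and the mitochondrial list 1 to 2 lower.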
